A study of Homo sapiens with 10 samples.

Results

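The BCL2 family decides whether a mitochondrion releases the proteins that start cell death, and 10 of its genes were followed here through esophageal squamous cell carcinoma (ESCC) cell lines. The genes were taken by name: BCL2, BCL2L1 and MCL1 (anti-apoptotic members), BAX and BAK1 (effectors), and BID, BIK, BBC3, PMAIP1 and BCL2L11 (BH3-only members). All 10 were listed in each of the 10 libraries, and all 10 passed the filter on low values in both experiments, among 12428 genes tested in the interferon experiment and 12813 in the knockdown experiment. The cells were KYSE30, KYSE180 and KYSE450, established human ESCC lines used at passage 5-10. For the interferon experiment all 3 received IFN-β (a type I interferon) at 1000 IU/ml for 72 h or the buffer PBS, which gave 3 treated and 3 untreated libraries. For the knockdown experiment, cells of KYSE30 and KYSE180 carried a lentivirus that depletes IRF1-AS, the antisense RNA of the interferon-response gene IRF1, or the vector control, which gave 2 libraries per group. Each line gave 1 library per group, so the lines were the replicates of a treatment, and the sources name neither the silencing sequence nor the number of clones.

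Anti-apoptotic members hold the effectors in check on the outer mitochondrial membrane. When enough BH3-only proteins are made or activated, they occupy the anti-apoptotic proteins or engage BAX and BAK1 directly, the effectors open pores, and cytochrome c leaves the mitochondrion and activates caspases. In many squamous carcinomas survival depends mainly on MCL1 and on BCL-XL, the long product of BCL2L1, rather than on BCL2. Type I interferon can raise several pro-apoptotic genes in epithelial cells, and PMAIP1, which encodes NOXA, is known as a target of interferon, p53 and stress signalling. All values below are RNA levels; protein, splice forms (such as the long and short forms of BCL2L1) and cell death were not measured.

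Among the members, PMAIP1 had the same direction within every line of each experiment: higher after IFN-β in all 3 lines and lower after knockdown in both. BBC3 had the largest ratio of any member in a line, in KYSE30 after knockdown. The stretches upstream of these genes are therefore shown, 5′ to 3′ on the strand of the gene, from RefSeq (GRCh38.p14), which gave windows for 8 of the 10 members. MCL1 and BIK had no entry. They end before the outermost GENCODE release 29 start of each gene, at chr18:59899746-59899947 on the plus strand for PMAIP1 and chr19:47232767-47232917 on the minus strand for BBC3. In that annotation (GRCh38) PMAIP1 spans chr18:59899948-59904306 and BBC3 chr19:47220822-47232766. Capitals mark matches to the motifs named below.
PMAIP1: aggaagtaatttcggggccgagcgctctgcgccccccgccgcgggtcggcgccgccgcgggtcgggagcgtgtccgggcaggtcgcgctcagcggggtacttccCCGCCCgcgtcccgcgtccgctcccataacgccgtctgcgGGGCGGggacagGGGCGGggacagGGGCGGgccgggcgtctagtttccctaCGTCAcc
BBC3: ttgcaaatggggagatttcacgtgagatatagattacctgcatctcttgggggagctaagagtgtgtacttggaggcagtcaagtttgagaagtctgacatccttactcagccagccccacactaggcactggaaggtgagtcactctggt
Motifs were searched on both strands of the 250 bases before the RefSeq start. PMAIP1 held TGACG, the core of the cyclic AMP response element, at -55 to -51 from the start, on the reverse strand, where it reads CGTCA in the sequence above. It also held the SP1-type box GGGCGG 4 times, 3 on the forward strand and 1 on the reverse strand. TGACG was in 21.2% and GGGCGG in 42.6% of all 35114 windows of that length. No match was found there for the interferon-response core GAAANNGAA (6.88% of windows), the STAT-type site TTCNNNGAA (6.57%), the full element TGACGTCA (1.65%, which contains TGACG), TGATGNAAT (a joint element of C/EBP and ATF factors, 0.889%), TATAAA (10.7%) or the p53 decamer (5.57%). None of these motifs was found in the BBC3 window. That window lies at the outermost annotated start of BBC3. The gene is 11945 bases long, and no stretch further into it was searched. The PMAIP1 matches do not overlap each other, and they describe letters in the sequence, not bound sites. GC content was 72.8% in the PMAIP1 window and 49.2% in that of BBC3, against a median of 58% over all windows.

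Levels are given as FPKM (fragments per kilobase of transcript, scaled to library size), a unit per length, as the authors deposited them. The experiments had been normalized separately, so a level in one is not on the same scale as a level in the other. MCL1, whose short-lived protein holds BAK1 and NOXA, was the most abundant member in 8 of the 10 libraries. In untreated cells it stood at 118.6 FPKM in KYSE30, 93.4 in KYSE180 and 72.1 in KYSE450. BCL2L1 followed among the anti-apoptotic members at 26.4, 31.1 and 12.5 FPKM in the same order. BCL2, the founding member, was near the bottom of the family in every line, at 1.44, 1.77 and 1.22 FPKM, and MCL1 was 82.3, 52.8 and 59.1 times as abundant. Across all 10 libraries BCL2 made up between 0.984% and 2.16% of the FPKM summed over the 3 anti-apoptotic members.

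The effectors were both well expressed. In untreated cells BAX stood at 47.0 FPKM in KYSE30, 38.8 in KYSE180 and 21.7 in KYSE450, and BAK1 at 13.6, 25.7 and 15.7. BAX exceeded BAK1 in every library of both experiments, by a log2 ratio between 0.47 and 2.34. Of the BH3-only members, BID, which links death receptors to the mitochondrion once caspase-8 cleaves it, was the highest in untreated cells, at 34.0, 25.3 and 17.7 FPKM. BIK, an endoplasmic-reticulum member, ranged from 21.3 FPKM in KYSE30 to 4.97 in KYSE180 and 2.96 in KYSE450. BBC3, which encodes the p53 target PUMA, was at 5.37 and 6.59 FPKM in KYSE30 and KYSE180 and at 0.27 FPKM in KYSE450. BCL2L11, which encodes BIM, stood between 1.31 and 2.44 FPKM. The family thus spanned levels from below 1 FPKM to that of MCL1, which in untreated cells lay between the percentiles 90.9 and 94.4 of the genes tested.

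**Figure D1:**
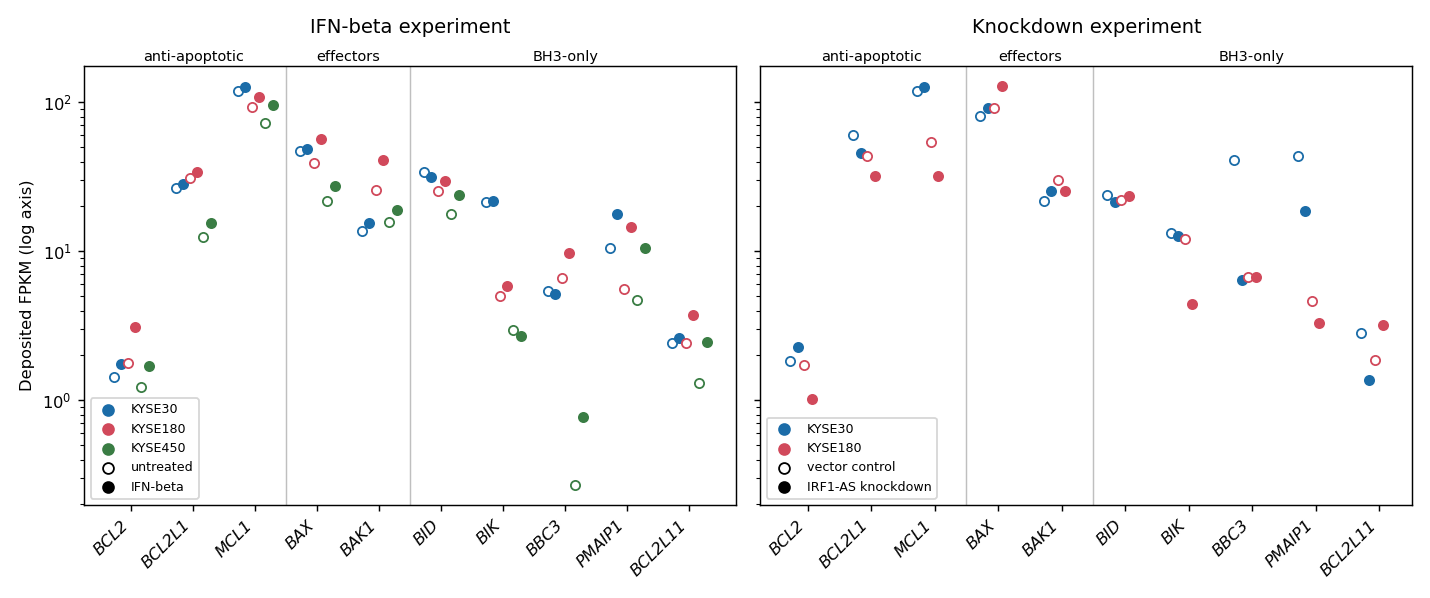
FPKM of the 10 members in each library (log axis), IFN-β experiment on the left and knockdown experiment on the right; colour gives the line, open points the untreated or vector control library and filled points the treated or knockdown library. MCL1 lies at the top and BCL2 near the bottom in every line of the IFN-β experiment, BBC3 is lowest in KYSE450 (0.27 and 0.77 FPKM), and the KYSE30 vector control stands high for BBC3 (40.6) and PMAIP1 (43.4).

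The label checks bear on several results. IFN-β raised ISG15, an interferon-induced ubiquitin-like protein, in every line: KYSE30 had 45.5 FPKM untreated and 1686 treated, KYSE180 14.2 and 809, KYSE450 18.4 and 1571 (limma adjusted p = 7.87e-05). It raised IRF1 by a log2 fold change of 1.30 ± 0.13 (SE; limma adjusted p = 0.0169). The antisense gene of IRF1, listed as C5orf56, had 6.86 FPKM with vector and 3.04 with knockdown in KYSE30, and 1.08 and 0.948 in KYSE180. It was itself higher after IFN-β in every line. Its FPKM, untreated first, were 1.72 and 6.62 in KYSE30, 0.97 and 5.47 in KYSE180, and 0.38 and 3.93 in KYSE450. The KYSE30 vector control held 1073 FPKM of ISG15 and 31.1 of IRF1, against 346 and 5.88 in its knockdown library. Both KYSE180 libraries of that experiment were at 32.6 FPKM of ISG15 or below. All 12 squamous epithelial markers passed the filter in both experiments, but the keratin KRT5 was at 2.91 and 1.37 FPKM in KYSE30 of the IFN-β experiment, where KYSE180 exceeded KYSE30 by 8.91 on the log2 scale. KYSE30 had 117 and 228 FPKM in the knockdown experiment, where it was exceeded by 4.18. For KRT6A these line differences were 7.29 in the IFN-β experiment and 3.11 in the knockdown experiment. For KRT17 they were 6.64 and 3.10, and for KRT14 7.70 and 6.79. Of 8 leukocyte and 8 stromal and endothelial markers none passed the filter in the IFN-β experiment, and 1 of each did in the knockdown experiment (CSF1R at up to 1.35 FPKM and COL1A1 at up to 5.38). CD3D was listed at 0 in all 10 libraries.

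The first comparison asked what IFN-β does to the family. PMAIP1 had the largest difference of the 10. KYSE30 had 10.48 FPKM of it untreated and 17.72 treated, KYSE180 had 5.54 and 14.45, and KYSE450 had 4.69 and 10.48. Every treated library was above its own control, but treated KYSE450 matched untreated KYSE30, so the groups overlapped. On FPKM scaled by the median of ratios, which removes shifts shared by all genes of a library, PMAIP1 was 1.69, 2.70 and 1.56 times its control. Its log2 fold change, on log2(scaled FPKM + 1), was 0.85 ± 0.17 (SE, n = 3 lines), with a 95% interval of 0.44 to 1.26. The adjusted p from limma was 0.18, which did not pass the threshold of 0.05. By p-value PMAIP1 ranked 142 of 12428 genes. In bulk RNA, more cells with the transcript and more transcript per cell cannot be told apart.

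No member was called in that comparison, in which 51 of 12428 genes (0.41%) were, all of them higher. With the values as deposited, 237 genes (1.91%) were called, 193 higher and 44 lower, and PMAIP1 was among them at 0.99 ± 0.26 (limma adjusted p = 0.00821), the only member so called. In that fit the spread of 10827 of the 12428 genes was pooled with infinite prior degrees of freedom (median 4.37 on the scaled values). The ratio of the PMAIP1 estimate to its SE was smaller there, so the lower p came with those degrees of freedom. Over the other alternatives its adjusted p lay between 0.104 and 1. Those deposited values carry a shift: the median log2 ratio over all genes was 0.41 in KYSE450 and -0.014 and -0.019 in KYSE30 and KYSE180. Treated KYSE450 was also the library in which the non-coding RNAs RMRP and RPPH1 took 26.5% of the named-gene FPKM, against 37.2% to 41.9% in the other 5. The part of this in the results was not tested.

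The 9 other members had log2 fold changes between -0.07 and 0.27, each within 2 SE of 0. BCL2 was at 0.25 ± 0.17, MCL1 at 0.08 ± 0.13 and BCL2L1 at 0.03 ± 0.13, with 95% intervals that reached no further than 0.67, 0.40 and 0.34. BAK1 was at 0.21 ± 0.19 and BAX at 0.15 ± 0.16. BBC3 and BCL2L11 were each at 0.27, with SE of 0.16 and 0.15, BID at 0.03 ± 0.13 and BIK at -0.07 ± 0.17. In all, 9 of 10 members had a positive value, against 47.6% of all genes tested, and the median was 0.18 against -0.01 over all genes. As deposited, 10 of 10 were positive against 71.4% of all genes, with medians of 0.31 and 0.12. BIK was positive as deposited (0.04) and without KYSE450 (0.14). Without KYSE180, the values of BCL2L1, MCL1, BAX, BAK1 and BID were negative, between -0.09 and -0.004, as was BCL2L1 without KYSE30 (-0.01).

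The lines differed in how the other members stood after IFN-β. In KYSE180 all 10 members were above their control on the scaled values, where the median log2 ratio over all genes was 0.02. Among the ratios of all genes there, the members ranged from percentile 66.1 (BCL2L1) to 98.7 (PMAIP1). BAK1 went from 25.7 to 40.8 FPKM, a scaled log2 ratio of 0.69. BAX went from 38.8 to 56.4 FPKM (0.58), BCL2 from 1.77 to 3.12 (0.59) and BBC3 from 6.59 to 9.75 (0.54). In KYSE30 the 9 members other than PMAIP1 had scaled log2 ratios between -0.11 (BID) and 0.18 (BCL2 and BAK1), BAX being at 47.0 and 48.6 FPKM and BIK at 21.3 and 21.9. In KYSE450 the direction depended on the scaling: BCL2, BCL2L1, MCL1, BAX, BAK1 and BID were higher as deposited, by log2 ratios of 0.26 to 0.42, and lower after scaling, by -0.02 to -0.23. MCL1 there went from 72.1 to 95.7 FPKM as deposited, a log2 ratio of 0.40 that matches the 0.41 of all genes. BIK was lower in KYSE450 on both scales, at 2.96 and 2.68 FPKM. PMAIP1, BCL2L11 and BBC3 were higher in KYSE450 on both, with scaled log2 ratios of 0.56, 0.26 and 0.32. On log2(scaled FPKM + 1), PMAIP1 in KYSE180 was the only member to differ by at least 2-fold in a line, where 4.28% of all genes reached it, against 1.91% in KYSE30 and 3.56% in KYSE450. As deposited, PMAIP1 in KYSE450 reached it too (4.69 and 10.48 FPKM). The low BBC3 values of KYSE450 (0.27 and 0.77 FPKM) differed by 1.99 times on scaled FPKM without the added 1. Each line gave 1 library per group, so no test of the lines' difference in response was made.

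**Figure D2:**
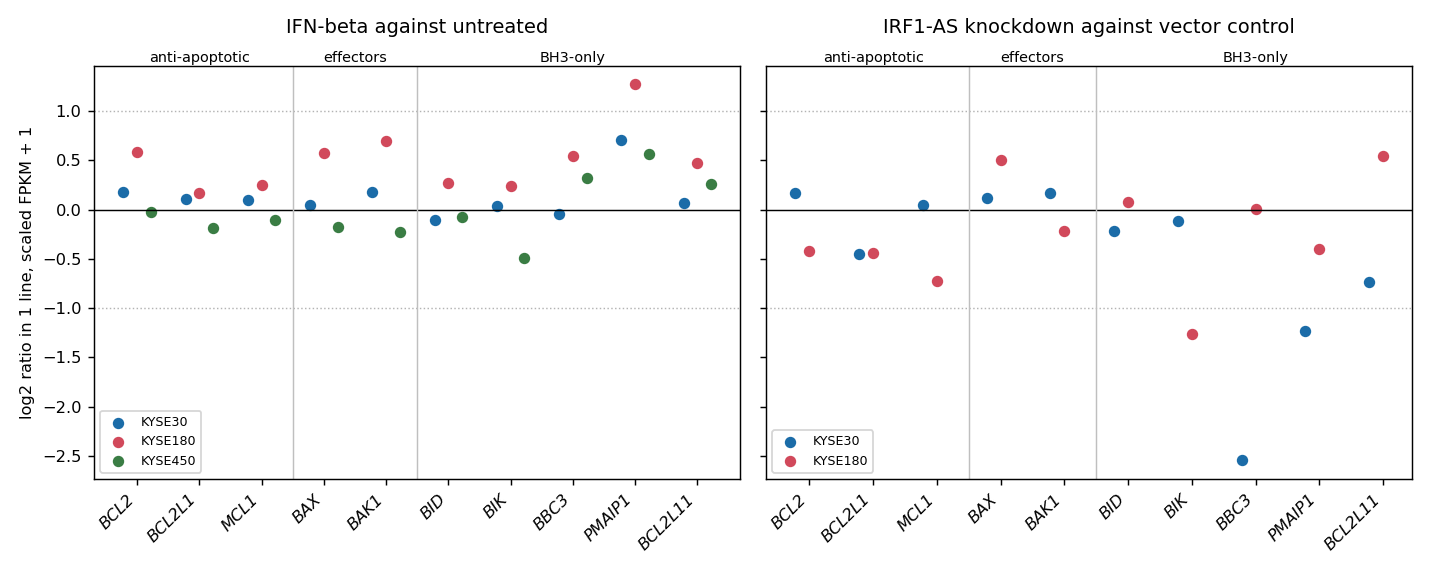
Ratio of the treated to the control library in each line, as a log2 difference of scaled FPKM + 1, for IFN-β (left, 3 lines) and IRF1-AS knockdown (right, 2 lines); dotted lines mark 2-fold. PMAIP1 lies above 0 in all 3 lines on the left (0.71, 1.27 and 0.56) and below 0 in both lines on the right (-1.23 and -0.40), while BBC3 lies at -2.54 in KYSE30 and at 0.00 in KYSE180 after knockdown.

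Ratios between members of the same library are free of any scaling of the library. The log2 ratio of PMAIP1 to MCL1, whose proteins bind each other, was -3.50 untreated and -2.83 treated for KYSE30, -4.08 and -2.90 for KYSE180, and -3.94 and -3.19 for KYSE450. All 3 treated libraries lay above all 3 untreated ones. The difference within a line was 0.67, 1.18 and 0.75. PMAIP1 also took a larger share of the BH3-only FPKM, at 14.2% untreated and 22.5% treated in KYSE30, 12.4% and 22.8% in KYSE180, and 17.4% and 26% in KYSE450. The difference within a line was 8.25 to 10.4 points for PMAIP1 and -6.28 to -9.69 points for BID. Shares of a total trade off against each other, so the latter does not show less BID. Its FPKM, untreated first, were 34.0 and 31.4 in KYSE30, 25.3 and 29.7 in KYSE180, and 17.7 and 24.0 in KYSE450. The log2 ratio of MCL1 to BCL2L1 moved by no more than 0.09 in any of the 3 lines, and that of BAX to BAK1 by no more than 0.14. That of BAX to BCL2L1 moved by -0.06 in KYSE30, 0.41 in KYSE180 and 0.02 in KYSE450. No p is given for these ratios, which were chosen with results of these data known.

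The second comparison set IRF1-AS knockdown against vector. In KYSE180 the targeted gene was at 1.08 FPKM with vector and 0.948 with knockdown, so the labelled depletion is hardly seen in its RNA there. In KYSE30 it was at 6.86 and 3.04 FPKM. The part of the high ISG15 and IRF1 state of that vector control in this difference was not tested. No gene passed the threshold (0 of 12813, 0%; 845 had an unadjusted p under 0.05 and the smallest adjusted p was 0.142 with limma), so no member was called, and 1 of 10 had an unadjusted p under 0.05. That member was PMAIP1, for which KYSE30 had 43.4 FPKM with vector and 18.6 with knockdown, and KYSE180 had 4.66 and 3.28. Both knockdown libraries were below their own control, by scaled log2 ratios of -1.23 and -0.40. Its log2 fold change was -0.81 ± 0.27 (SE, n = 2 lines), with a 95% interval of -1.49 to -0.13. The adjusted p from limma was 0.738. The KYSE30 vector control, with its 1073 FPKM of ISG15, held the highest PMAIP1 level of the experiment. The part of that interferon-type signal in the PMAIP1 values was not tested.

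BBC3 had the largest ratio of the family. KYSE30 had 40.6 FPKM of it with vector and 6.42 with knockdown, a scaled log2 ratio of -2.54 that 0.1% of all genes fell below in that line. In KYSE180 it was at 6.70 and 6.69 FPKM. The KYSE30 vector control stood alone, and the other 3 libraries lay within 0.3 FPKM of each other. The log2 fold change over both lines was -1.27 ± 0.60 (limma adjusted p = 0.796), and it rests on that 1 library. That library also held the 1073 FPKM of ISG15, whose part in the BBC3 value was not tested.

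BCL2L1 had nearly the same ratio in both lines. KYSE30 had 60.3 FPKM with vector and 45.4 with knockdown, and KYSE180 had 43.6 and 31.8. These are scaled log2 ratios of -0.45 and -0.44, and the log2 fold change was -0.45 ± 0.18 (limma adjusted p = 0.755). Both knockdown libraries were below their own controls, though KYSE30 after knockdown (45.4) was above the KYSE180 vector control (43.6). MCL1 had 118.2 and 126.9 FPKM in KYSE30 and 53.7 and 31.9 in KYSE180, so only KYSE180 was lower, by -0.73. For BCL2 the values were 1.84 and 2.26 FPKM in KYSE30 and 1.73 and 1.02 in KYSE180. All 3 anti-apoptotic members were therefore lower after knockdown in KYSE180, and in KYSE30 1 of the 3 was.

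Of the effectors, BAX was above its control in both lines, with 81.3 and 91.6 FPKM for KYSE30 and 91.2 and 129.2 for KYSE180, a log2 fold change of 0.31 ± 0.20 (limma adjusted p = 0.823). BAK1 had 21.6 and 25.3 FPKM in KYSE30 and 29.9 and 25.5 in KYSE180. Among the remaining BH3-only members BIK had 13.2 and 12.6 FPKM in KYSE30 and 12.1 and 4.44 in KYSE180, where its scaled log2 ratio was -1.26. BID lay between 21.3 and 24.0 FPKM in all 4 libraries. BCL2L11 had 2.81 and 1.36 FPKM in KYSE30 and 1.88 and 3.20 in KYSE180, opposite directions at a low level. On log2(scaled FPKM + 1), a difference of at least 2-fold was reached by BBC3 and PMAIP1 in KYSE30, where 4.97% of all genes reached it, and by BIK in KYSE180, where 3.76% did. Without the added 1, BCL2L11 in KYSE30 reached it as well (0.467 times its control). The median over the 10 members was -0.24, against -0.01 over all genes, and 1 of 10 was positive, against 48.1% of all genes. These are values over both lines, which often moved in opposite directions. Only 3 of 10 members were lower in both lines, against 28.1% of the 10045 genes tested in both experiments.

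Of the 10045 genes tested in both experiments, 521 (5.19%) were higher after IFN-β in all 3 lines and lower after knockdown in both. PMAIP1 was the 1 member of 10 among them. BCL2L11 was the other member higher in all 3 lines after IFN-β, which makes 2 of 10 members, against 17.6% of all these genes. BCL2L1 and BIK were the others lower in both lines after knockdown, which makes 3 of 10, against 28.1%. The log2 ratio of PMAIP1 to MCL1 was -1.44 with vector and -2.77 with knockdown for KYSE30, and -3.53 and -3.28 for KYSE180, where MCL1 was lower by more than PMAIP1. The ratio thus moved in opposite directions in the 2 lines. That of BAX to BCL2L1 moved by 0.58 in KYSE30 and by 0.96 in KYSE180 after knockdown.

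Summed over the 10 members, the anti-apoptotic genes took 47.4% to 57.2% of the family's FPKM in the libraries of the IFN-β experiment, the effectors 21.4% to 31.8% and the BH3-only members 17.9% to 26.3%. In KYSE180 the effector share was 27.4% untreated and 31.8% treated, and in KYSE30 it was 21.6% and 21.4%. In the knockdown experiment KYSE180 stood apart, with BAX in place of MCL1 as its highest member in both libraries. Its effector share was 45.2% with vector and 59.4% after knockdown, and its anti-apoptotic share was 37.0% and 24.8%. In KYSE30 the BH3-only share was 30.5% with vector and 17.1% after knockdown, and BBC3 alone made up 32.8% and 10.6% of the BH3-only FPKM.

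**Figure D3:**
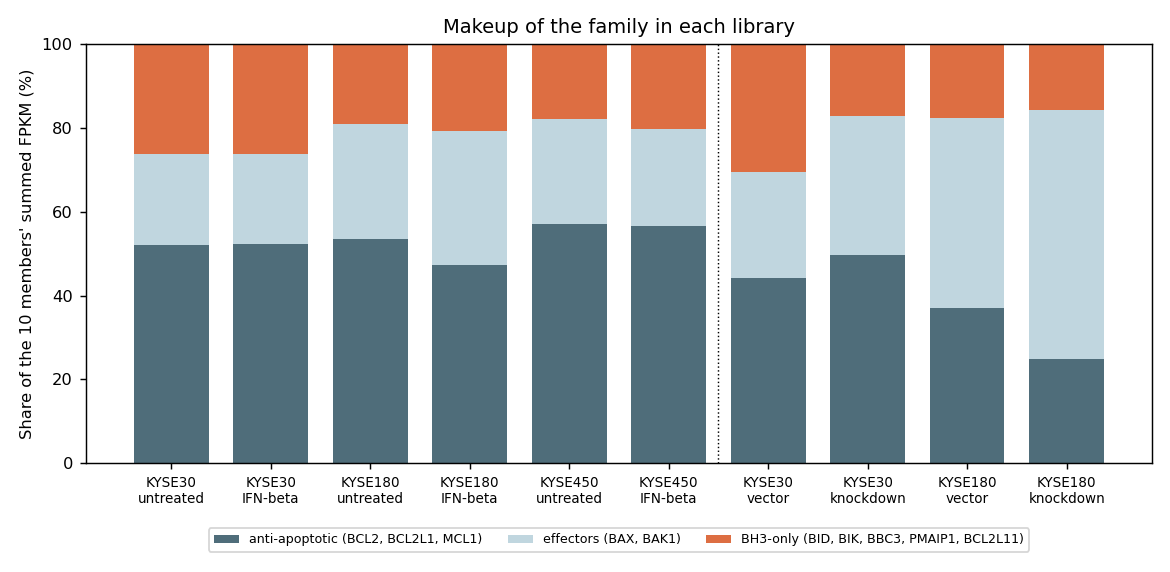
Share of the 10 members' summed FPKM taken by each class in each library, with bars starting at 0 and the dotted line between the IFN-β experiment and the knockdown experiment. Effectors take 21.4% to 31.8% left of the line and 59.4% in the KYSE180 knockdown library, and BH3-only members take 30.5% in the KYSE30 vector control.

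Differences between lines come from the same fits, in which the treated and control libraries of a line are its only replicates. KYSE450 was lower than KYSE30 in 7 of 10 members and higher in none, where 46.6% of all genes were called in either direction (2734 higher and 3056 lower). BIK had the largest difference, with 21.3 and 21.9 FPKM in the KYSE30 libraries and 2.96 and 2.68 in those of KYSE450, a log2 difference of -2.62 ± 0.21 (limma adjusted p = 0.000348). BBC3 followed, at 5.37 and 5.19 FPKM in KYSE30 and 0.27 and 0.77 in KYSE450 (-2.15 ± 0.20; limma adjusted p = 0.000566). With 0.1 FPKM added in place of 1, its difference was -3.32. BBC3 passed the filter of 1 FPKM only through KYSE30 and KYSE180, which bears on its calls against either line. BCL2L1 was at 26.4 and 28.4 FPKM in KYSE30 and 12.5 and 15.6 in KYSE450 (-0.98 ± 0.15; limma adjusted p = 0.00352). The calls of these 3 genes held when any 1 of the 6 libraries was left out. BAX (-0.99), PMAIP1 (-0.92), BID (-0.69) and MCL1 (-0.61) were also lower in KYSE450. Of these, MCL1, BID and PMAIP1 lost the call without untreated KYSE30, treated KYSE30 or treated KYSE450, and BAX without untreated KYSE30 or treated KYSE450. The count was then 3, 4 and 3. As deposited, MCL1 and BID were not called either.

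Against KYSE180, KYSE450 was lower in 4 members and higher in none, where 49% of all genes were called. BBC3 was at 6.59 and 9.75 FPKM in KYSE180 (-2.48 ± 0.20; limma adjusted p = 0.000384) and BCL2L1 at 31.1 and 34.0 (-0.998 ± 0.15; limma adjusted p = 0.00297), both above the KYSE450 values given before. BAX (-0.74) and BAK1 (-0.71) were called as well. Both lost the call without treated KYSE180 or treated KYSE450, which left 2 members, and BAK1 also without either KYSE30 library. Neither was called without the filter on low values, nor was BAK1 with limma run without its trend and robust options (adjusted p = 0.0552). Over the 3 lines BBC3 was therefore similar in KYSE30 and KYSE180 (0.33 ± 0.20; 95% interval -0.16 to 0.81) and far lower in KYSE450. BCL2L1 had the same order, with KYSE30 and KYSE180 within 0.02 ± 0.15 of each other. BCL2 and BCL2L11 differed beyond the threshold in none of the 3 pairs of lines.

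KYSE180 and KYSE30 were compared in both experiments, with no library shared. In the IFN-β experiment, 4 of 10 members were called where 45.8% of all genes were: BIK (-2.02 ± 0.21), PMAIP1 (-0.75 ± 0.21) and MCL1 (-0.51 ± 0.16) were lower in KYSE180, and BAK1 (0.89 ± 0.23) was higher. BIK was at 4.97 and 5.88 FPKM in KYSE180, and this call held without any 1 library. Without either KYSE30 library BIK was the only member called, and without untreated KYSE180 the count was 2. BAK1 was not called without treated KYSE180, and MCL1 and PMAIP1 not as deposited. MCL1 also missed the threshold under upper-quartile scaling (limma adjusted p = 0.0507), and without the filter BIK alone was called. In the knockdown experiment 28.8% of all genes and 2 of 10 members were called, PMAIP1 (-2.65 ± 0.27; limma adjusted p = 0.0034) and MCL1 (-1.62 ± 0.25; limma adjusted p = 0.00959), both lower in KYSE180. PMAIP1 was at 43.4 and 18.6 FPKM in KYSE30 against 4.66 and 3.28 in KYSE180, and MCL1 at 118.2 and 126.9 against 53.7 and 31.9. Neither was called without the KYSE180 knockdown library, where PMAIP1 was at -2.40 (limma adjusted p = 0.0686), and MCL1 was not called without the filter (limma adjusted p = 0.055). PMAIP1 and MCL1 were thus called in both experiments, within these limits.

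The other 8 members were called in at most 1 of the 2 experiments, and the difference between the experiments was not tested. BIK was -2.02 in the IFN-β experiment and -0.78 ± 0.32 in the knockdown experiment, where the KYSE180 vector control (12.1 FPKM) was near both KYSE30 libraries (13.2 and 12.6). BAK1 was at 0.89 and 0.15, BID at -0.46 and -0.07, and BCL2L11 at 0.03 and 0.16. BBC3 was at 0.33 and -1.26, BCL2 at 0.23 and -0.42, BCL2L1 at 0.02 and -0.56, and BAX at -0.25 and 0.25. In all, 6 of 10 members had the same sign in both experiments, against 74.4% of the 10045 genes tested in both. The 2 experiments differ in lentivirus, in normalization and in the keratin differences between these lines given above. They also differ in ISG15, at 1073 and 346 FPKM in KYSE30 against 32.6 and 23.7 in KYSE180 in the knockdown experiment. Untreated KYSE30 and KYSE180 of the IFN-β experiment had 45.5 and 14.2 FPKM. RMRP and RPPH1 took 26.5% to 41.9% of the named-gene FPKM in the IFN-β experiment. In the knockdown experiment they took 0% of the FPKM. The parts of these differences cannot be told apart here, for PMAIP1 and MCL1 as for the other members.

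**Figure D4:**
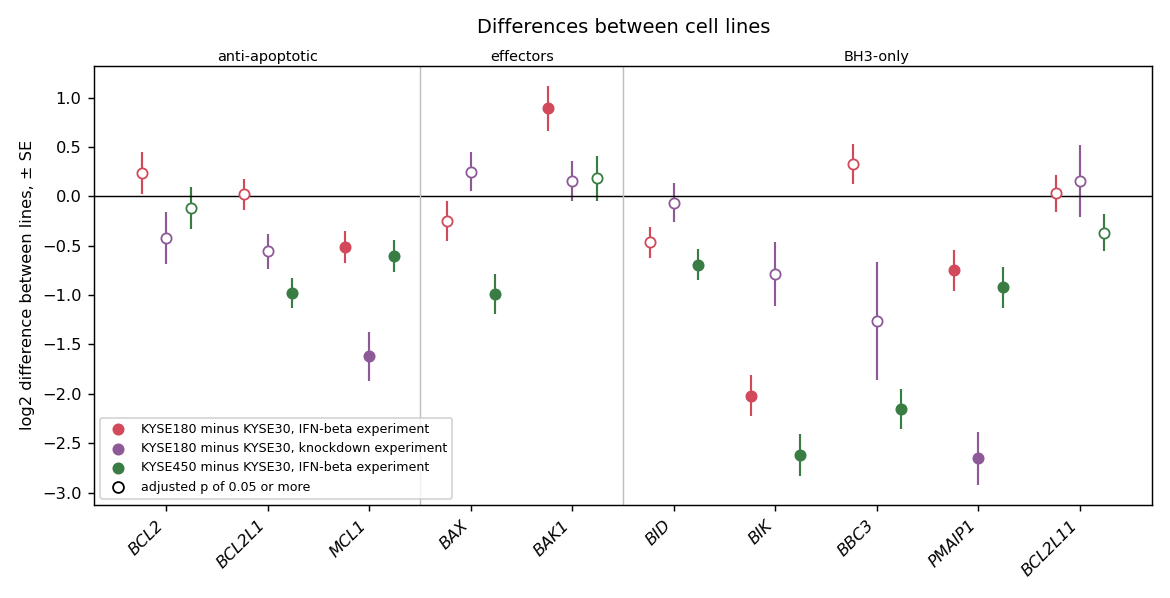
Log2 difference between lines for each member, with its SE, from the fits on scaled FPKM + 1; filled points have an adjusted p under 0.05. KYSE450 lies below KYSE30 for BIK (-2.62) and BBC3 (-2.15), and PMAIP1 and MCL1 are the members called in both experiments for KYSE180 minus KYSE30.

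Of 12 further genes of the family, 7 passed the filter in each experiment. None was called for IFN-β (BCL2L13 had 0.27 ± 0.13 and BMF -0.31 ± 0.17) or for knockdown (BNIP3, a hypoxia-induced mitophagy receptor, had -0.95 ± 0.20 with a limma adjusted p of 0.672, and BMF -0.74 ± 0.38). The medians were -0.05 and -0.15, beside -0.01 over all genes in both. BCL2L2, which encodes the anti-apoptotic BCL-W, was higher in KYSE180 than in KYSE30 in both experiments, by 1.66 ± 0.14 and 1.57 ± 0.19. BNIP3 was called in both with opposite signs, at -1.16 ± 0.26 and 0.89 ± 0.20. In the IFN-β experiment KYSE180 was also lower than KYSE30 in BCL2L12 (-0.58). KYSE450 was lower than KYSE30 in BMF (-1.48), BNIP3 (-1.45) and BCL2L12 (-0.89) and higher in BOK (1.11), an effector-like member. Against KYSE180, KYSE450 was lower in BMF (-1.78), BCL2L2 (-1.73) and BAD (-1.04) and higher in BOK (0.81).

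Downstream of the family, all 23 genes of the mitochondrial death machinery passed the filter, and none was called for either treatment (medians -0.05 and 0.05, beside -0.01 over all genes in both). After IFN-β 4 had an unadjusted p under 0.05, as 1209 of all 12428 genes did, among them the outer-membrane protein MTCH2 (-0.34 ± 0.11; limma adjusted p = 0.482). After knockdown 1 did, the inhibitor-of-apoptosis gene BIRC3 (-1.15 ± 0.38; limma adjusted p = 0.738). KYSE180 was higher than KYSE30 in HTRA2, a protease released from mitochondria, by 1.09 ± 0.16 and 1.16 ± 0.20 in the IFN-β and knockdown experiments, and lower in the initiator caspase CASP9 by -1.53 ± 0.17 and -1.02 ± 0.21. In the IFN-β experiment 1 of the 23 was higher and 7 lower in KYSE180, CASP6 (-0.97) and the caspase inhibitor XIAP (-0.97) among them. In the knockdown experiment 1 was higher and 1 lower. KYSE450 was higher than KYSE30 in 6 and lower in 7, with CYCS, which encodes cytochrome c, at 1.06 and ENDOG at 1.24 and XIAP at -1.20 and CASP9 at -1.02. Against KYSE180 it was higher in 9, BIRC3 (1.16), DFFA (1.12) and CYCS (1.07) among them, and lower in 2. Of all genes tested, 45.8% were called between KYSE180 and KYSE30 in the IFN-β experiment and 28.8% in the knockdown experiment. For KYSE450, 46.6% were called against KYSE30 and 49% against KYSE180.

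Upstream, 17 of 18 regulators of the family passed the filter, and none was called for a treatment (medians 0.10 and -0.15, beside the same -0.01). In the IFN-β experiment 5 had an unadjusted p under 0.05, beside 1209 of all 12428 genes, led by the stress-response genes ATF3 (0.80 ± 0.18; limma adjusted p = 0.251) and TRIB3 (0.67 ± 0.17; limma adjusted p = 0.321). After knockdown 4 did, led by the co-chaperone BAG1 (0.61 ± 0.20) and DDIT3, which encodes CHOP (-1.02 ± 0.33), both at a limma adjusted p of 0.738. Between KYSE180 and KYSE30, 3 regulators were higher and 2 lower in the IFN-β experiment, TP63 (1.72), MYC (1.22) and BAG1 (0.95) being higher and MDM2 (-0.76) lower. In the knockdown experiment 2 were higher and 4 lower, BAG1 (1.42) and TP73 (1.36) being higher and ATF3 (-2.46) and TRIB3 (-1.38) lower. KYSE450 was higher than KYSE30 in 5, DDIT3 (1.97), TP63 (1.49), BAG1 (1.43) and MYC (1.23) among them, and lower in 4. Against KYSE180 it was higher in ATF4 (0.62) and lower in TP73 (-1.45) and FBXW7 (-1.16), which encodes the ubiquitin-ligase subunit that recognises MCL1. These counts, and those of the markers below, stand beside the shares of all genes called. The shares were 45.8% and 28.8% for KYSE180 against KYSE30 (IFN-β and knockdown experiment). For KYSE450 they were 46.6% against KYSE30 and 49% against KYSE180. Of the squamous markers, the keratins KRT5, KRT14, KRT6A and KRT17 were higher in KYSE180 than in KYSE30 by 6.64 to 8.91 in the IFN-β experiment and by 3.10 to 6.79 in the knockdown experiment. Of the 12 markers, 10 and 8 were called higher in KYSE180 than in KYSE30 in the 2 experiments and 9 higher in KYSE450 than in KYSE30, with none lower, and KYSE450 was higher than KYSE180 in 4 and lower in 3. None was called for a treatment, although KRT5 had -0.89 ± 0.14 after IFN-β (limma adjusted p = 0.0883), and KRT14 -1.11 ± 0.18 after knockdown (limma adjusted p = 0.571).

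Some members share exonic sequence with another gene in GENCODE release 29, and since the sources used here do not give the strand setting of the counting, reads of both cannot be told apart. BCL2L1 shares 1424 of its 3314 exonic bases with ABALON, an antisense RNA. The long non-coding part of the IFN-β tables lists ABALON at 15.8 and 15.4 FPKM in KYSE30, 9.22 and 26.5 in KYSE180, and 3.36 and 6.47 in KYSE450, untreated first. Its log2 fold change for IFN-β was 0.59 ± 0.30 (limma adjusted p = 0.568), with KYSE450 lowest in ABALON as in BCL2L1. BCL2L11 shares 727 of 6658 exonic bases with the antisense-lying MIR4435-2HG, which was listed at 11.1 to 46.7 FPKM, above the 1.31 to 3.71 FPKM of BCL2L11. BBC3 contains the microRNA genes MIR3190 and MIR3191, 80 and 76 of its 3180 exonic bases. BAK1 shares 91 of 2212 exonic bases with GGNBP1 on the opposite strand. MCL1 shares 2 of 4371 with ADAMTSL4-AS1. PMAIP1, BCL2, BAX, BID and BIK shared no exonic base with another annotated gene.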

How the data were processed

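Total RNA of cultured ESCC lines was sequenced with standard Illumina libraries (10 libraries in 4 groups). TopHat, HTSeq and genome build hg38 are named in the submitters' processing notes. For annotation, strand setting and total depth the sources used here give nothing. Values were deposited as FPKM, per the file headers. The authors' named-gene FPKM sum to between 988427 and 993533 per library in the IFN-β experiment, and all FPKM to between 399081 and 425340 in the knockdown experiment, so the experiments were analysed separately. Steps between low values put the relative depth of the 4 knockdown libraries within 1.179-fold. No interval for counting error could be given.

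FPKM were divided by median-of-ratios factors (0.819 to 1.17) from the named genes, and log2(FPKM + 1) was fitted with limma 3.58.1 (trend, robust; statmod 1.5.0) in R 4.3.3, with cell line as a block and treatment as the effect. Fold changes of low genes are understated on this scale. Genes at 1 FPKM or more in at least 3 (IFN-β) or 2 (knockdown) libraries were tested. Benjamini-Hochberg adjustment ran over all genes tested, with calls at 0.05. Line differences come from the same fits. Same-numbered libraries are the same line, and their deviations from the group means correlated at 0.841 to 0.910 (IFN-β) and 0.842 (knockdown). With 1 library per line and group, every p-value, also between lines, rests on the residual of the line-plus-treatment fit. That residual is how unevenly the lines responded, with 2 (IFN-β) or 1 (knockdown) degrees of freedom per gene. limma moderated it toward a spread shared across genes (median prior degrees of freedom 4.37 and 4.24), so each SE and interval is moderated too. Scripts were tested on simulated data. Transcripts of the long non-coding part were added up by gene, and 946 alternate-haplotype copies were added to their primary gene, none of them a member.

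The members, lists and scaling were chosen with earlier results of these data known. The naming rule was: all members; from each other list the called genes, up to 4 by size per comparison, or, if none, the 2 with the smallest p; and IRF1, ISG15 and the antisense gene of IRF1 as checks. ABALON, MIR4435-2HG and the markers CSF1R, COL1A1 and CD3D were named after their values were seen. MARCHF5, a regulator in the lists, was not matched by name and was not analysed here. Some genes that the naming rule takes are not reported here. Alternatives were scaling, pseudocount, filters, limma options, the named-gene part alone, no block and leaving out lines or libraries.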

Additional observations from a re-analysis of the deposited data

Results flagged for a closer look

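BCL2L11 moved in opposite directions in the 2 lines after IRF1-AS knockdown, with a scaled log2 ratio of -0.73 in KYSE30 (2.81 FPKM with vector, 1.36 after knockdown) and 0.54 in KYSE180 (1.88 and 3.20 FPKM). It was singled out because both ratios exceed 0.5 in size with unlike signs. Each line gave 1 library per group, so the difference was not tested, and the levels are low.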

How the results depend on the processing

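For IFN-β the count of members called was 0 except for 1 (PMAIP1) as deposited. All genes called numbered 237 as deposited, 14 without the filter, 77 over the named-gene part and 32 to 79 when a line was left out, against 51. Without the replicate block, that is without pairing libraries by line, 13 genes and no member were called for IFN-β and none for knockdown; no member's call changed. Log2 fold changes for IFN-β that crossed 0 were BIK at 0.044 as deposited and, over the lines left out, BIK at -0.22 to 0.14, BCL2L1 at -0.036 to 0.14, MCL1 at -0.0037 to 0.17, BAX at -0.057 to 0.31, BAK1 at -0.020 to 0.43 and BID at -0.088 to 0.087. Members called in KYSE180 minus KYSE30 (IFN-β experiment) numbered 2 as deposited, 1 without the filter and 1 to 5 with a library left out (2751 to 5540 of all genes). For KYSE450 minus KYSE30 they numbered 3 to 7 with a library left out (2755 to 6591 genes), and for KYSE450 minus KYSE180, 2 without the filter and 2 to 5 with a library left out (4013 to 5567 genes). In the knockdown experiment KYSE180 minus KYSE30 gave 1 member and 1171 genes without the filter, 2305 genes at a mean of at least 5 FPKM, and 0 to 3 members (1874 and 1934 genes without a KYSE30 library, 984 and 892 without a KYSE180 library) with a library left out and no treatment term, an alternative chosen after seeing the data. Leaving out a line of the knockdown experiment leaves 1 library per group and gives values with no test. Of these, BCL2 (0.18), MCL1 (0.07) and BAK1 (0.19) in KYSE30 alone, and BID (0.08), BBC3 (0.005) and BCL2L11 (0.55) in KYSE180 alone, had the opposite sign to the value over both lines. Depth is unknown, so the precision of members near 1 FPKM, BCL2, BCL2L11 and BBC3 in KYSE450, cannot be given.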
